A study of Mus musculus with 8 samples.

Results

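Regions of open chromatin that carried a peak after either form of Ezh2 was overexpressed, and none in the GFP controls, were examined in mouse retinal ganglion cells (RGCs). Overlapping peaks (1 bp or more) from the 8 deposited lists were joined into merged regions on chromosomes 1 to 19. Members were chosen by the peak calls: a merged region was a member if all 3 Ezh2 lists and both Ezh2-Y726D lists had a peak in it and no GFP list did. This rule found 934 members among 186387 merged regions, or 0.501%. Since the rule used the presence and absence of peaks, the difference from GFP is a description of how members were chosen and was not tested. A peak is a call past a threshold in 1 library. The signal of the GFP libraries below their threshold was not analysed here, so the members are regions listed under both forms, not regions shown to be closed under GFP.

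Adult C57BL/6J mice received an intravitreal injection of AAV2-GFP (3 libraries), AAV2-Ezh2 (3 libraries) or AAV2-Ezh2-Y726D (2 libraries). The optic nerve was crushed 2 weeks later in every group, and 3 days after the crush RGCs were enriched from dissociated retina by sorting for CD90.2 (Thy1), with 50000 cells per library. The assay was ATAC-seq, which marks accessible DNA by the insertion of adapters through a transposase. The labels do not say whether libraries of a group came from separate animals, so p-values measure the spread between these libraries, which may be technical. AAV2 can also transduce other retinal cells, CD90.2 is carried by T cells as well as RGCs, and in a bulk library fewer cells of a type cannot be told apart from a weaker signal per cell.

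Ezh2 is the enzyme of Polycomb repressive complex 2 (PRC2), which places the repressive mark H3K27me3 on histone H3. The mark recruits further Polycomb proteins, and marked chromatin is typically compact and silent, above all at CpG-rich promoters of developmental genes. Ezh2-Y726D carries an exchange in the catalytic domain that removes the methyltransferase activity, so a region with a peak under both forms has one in the presence and in the absence of the added activity. Neither construct removes the cells' own Ezh2.

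Of the 934 members, 13 (1.39%) touched a promoter window, taken as 250 bases before to 50 bases after a RefSeq start site, against 7.30% of all merged regions and 16.9% of regions with a peak in all 8 lists. In 5 protein-coding genes the member covered the start site itself, and these windows are shown because they are the places where a member can be read against a gene's start. Sequences are from RefSeq (GRCm38.p6), 5′ to 3′ along the gene, with CpG dinucleotides, the letters CG, in capitals.
Lgsn, chr1:31176185-31176484, + strand: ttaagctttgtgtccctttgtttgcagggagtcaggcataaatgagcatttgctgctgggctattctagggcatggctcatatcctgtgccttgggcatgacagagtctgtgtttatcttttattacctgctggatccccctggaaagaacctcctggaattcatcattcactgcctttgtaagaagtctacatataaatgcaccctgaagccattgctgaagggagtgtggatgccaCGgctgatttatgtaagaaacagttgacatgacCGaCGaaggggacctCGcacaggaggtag
Mitf, chr6:97929567-97929866, + strand: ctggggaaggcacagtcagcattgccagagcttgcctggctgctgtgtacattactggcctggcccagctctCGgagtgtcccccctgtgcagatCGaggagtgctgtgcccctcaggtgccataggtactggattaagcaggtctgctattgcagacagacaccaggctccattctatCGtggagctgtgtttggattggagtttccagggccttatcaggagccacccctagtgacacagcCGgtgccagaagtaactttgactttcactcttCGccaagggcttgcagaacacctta
Tnk2, chr16:32672904-32673203, + strand: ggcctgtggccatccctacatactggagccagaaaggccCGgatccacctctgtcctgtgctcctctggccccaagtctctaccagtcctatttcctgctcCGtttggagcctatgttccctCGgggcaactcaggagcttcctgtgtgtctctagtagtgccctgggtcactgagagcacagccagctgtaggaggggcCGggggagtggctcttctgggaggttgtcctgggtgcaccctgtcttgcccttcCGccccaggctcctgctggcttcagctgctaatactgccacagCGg
Ccdc42, chr11:68586787-68587086, + strand: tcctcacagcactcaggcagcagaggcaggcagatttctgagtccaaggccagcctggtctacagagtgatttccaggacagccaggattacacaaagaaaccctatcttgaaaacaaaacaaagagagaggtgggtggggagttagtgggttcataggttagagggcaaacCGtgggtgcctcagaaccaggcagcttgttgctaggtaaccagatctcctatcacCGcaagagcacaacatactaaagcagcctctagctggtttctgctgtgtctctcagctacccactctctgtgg
1700034J05Rik, chr6:146954372-146954671, - strand: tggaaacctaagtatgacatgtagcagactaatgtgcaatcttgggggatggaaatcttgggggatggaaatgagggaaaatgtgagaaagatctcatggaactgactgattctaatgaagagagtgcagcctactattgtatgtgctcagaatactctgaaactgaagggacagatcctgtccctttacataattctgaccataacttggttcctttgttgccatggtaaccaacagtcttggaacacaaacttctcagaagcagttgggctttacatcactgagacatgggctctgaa

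The windows were poor in CpG. Lgsn (lengsin, a lens protein) had 4 CpG, Mitf (a transcription factor of pigment cells) 5, Tnk2 (a non-receptor tyrosine kinase) 6, Ccdc42 (a coiled-coil protein of sperm) 2 and 1700034J05Rik 0 in 300 bp. Members touched 16 windows in all, those of lncRNAs included, with a median of 5 CpG and a range of 0 to 10. The median was 7 over all 31396 windows and 21 over the windows touched by regions of all 8 lists. The GC box GGGCGG, searched on both strands, was found in 2 of the 16 windows (12.5%), against 36.0% of all windows and 62.7% of those touched by regions of all 8 lists. The E-box CANNTG was found in 13 of 16 (81.25%) and in 72.2% of all windows. The AP-1 motif TGANTCA and the homeodomain motif TAATTA were found in 0 of 16, against 7.84% and 5.27% of all windows. These are counts of letters and not of bound sites.

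The fold is the ratio of reads at the peak to the reads counted around it as background, with 1 added to each. At the Lgsn start site the fold was 4.64, 3.46 and 4.14 in Ezh2 replicates 1, 2 and 3 and 5.61 and 4.33 in Ezh2-Y726D replicates 1 and 2. At the Mitf start site it was 4.40, 3.23 and 3.71 with Ezh2 and 3.54 and 4.37 with Ezh2-Y726D. Values of the forms overlapped at both. The Mitf member lay 91473 bp and the Tnk2 member 10234 bp from the nearest end of its gene, so both cover internal start sites, whereas the other 3 windows lay at a gene end.

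The members were weak peaks. Their median fold was 3.91, 3.69 and 3.92 in the Ezh2 lists and 4.43 and 4.22 in the Ezh2-Y726D lists, against 5.99 to 6.68 for regions of all 8 lists in the same libraries. Ranked by fold within its own list, the median member stood at percentile 27.4, 25.3 and 36.2 with Ezh2 and 36.2 and 35.0 with Ezh2-Y726D. Above percentile 75 lay 0, 1 and 10 members with Ezh2 and 12 and 7 with Ezh2-Y726D. Averaged over the 5 lists, 66 members (7.07%) ranked above percentile 50, and the highest stood at 68.8. The same share was 34.0% of all merged regions, 700 of the 3689 regions with a peak in all 3 Ezh2 lists and no other, 4.21% of the 4417 regions with a peak in both Ezh2-Y726D lists and no other, and 74.3% of the 68278 regions of all 8 lists. Low rank was therefore shared with regions of 1 form alone and not particular to the members.

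**Figure D1:**
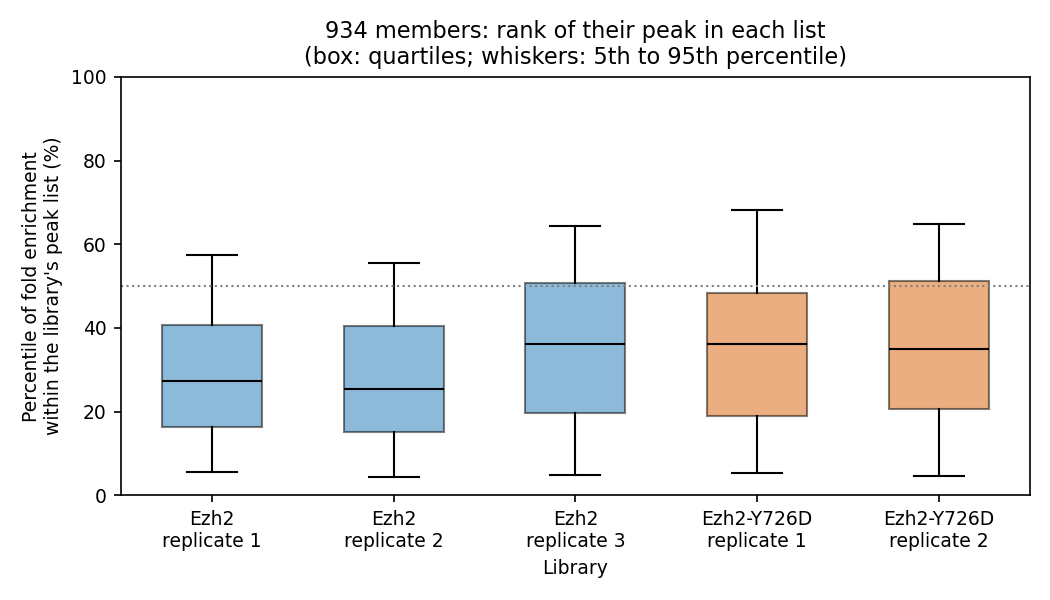
Percentile of the fold of the 934 members within each library's own peak list (y axis, %), by library (x axis), for 3 Ezh2 and 2 Ezh2-Y726D libraries; boxes span the quartiles, lines in them are medians and whiskers run from the 5th to the 95th percentile. Medians lie between 25.3 and 36.2, below the dotted line at 50 in every library.

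The fold of MACS2 is the reads plus 1 over the background plus 1, so it rises by an equal step with each read. The reads stacked at a peak can thus be recovered where the background is that of the whole genome. In 99.5% to 99.8% of such peaks the deposited p-value was that of a Poisson count with the recovered reads and background, within 0.01 on the −log10 scale. Between 59.3% and 70.1% of the members stood on this background in each list, against 35.7% to 39.8% of all peaks of those lists. There a member had a median of 16, 16 and 18 overlapping reads with Ezh2 and 15 and 18 with Ezh2-Y726D, over backgrounds of 3.09, 3.33 and 3.59 and of 2.39 and 3.12 reads. The backgrounds of the GFP libraries were 3.25, 2.69 and 3.74 reads, so GFP replicate 3 lay above the range of the libraries with Ezh2 or Ezh2-Y726D and the other two within it. Among GFP peaks on the same kind of background, the 5th percentile was 12, 11 and 14 overlapping reads, below the member medians of 15 to 18. The 5th percentile of the members was 12, 12 and 13 reads with Ezh2 and 10 and 13 with Ezh2-Y726D. These reads were not adjusted for the unlike backgrounds, and whether a GFP library could have listed a given member was not tested. The reads of GFP libraries at the members were not analysed here.

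**Figure D2:**
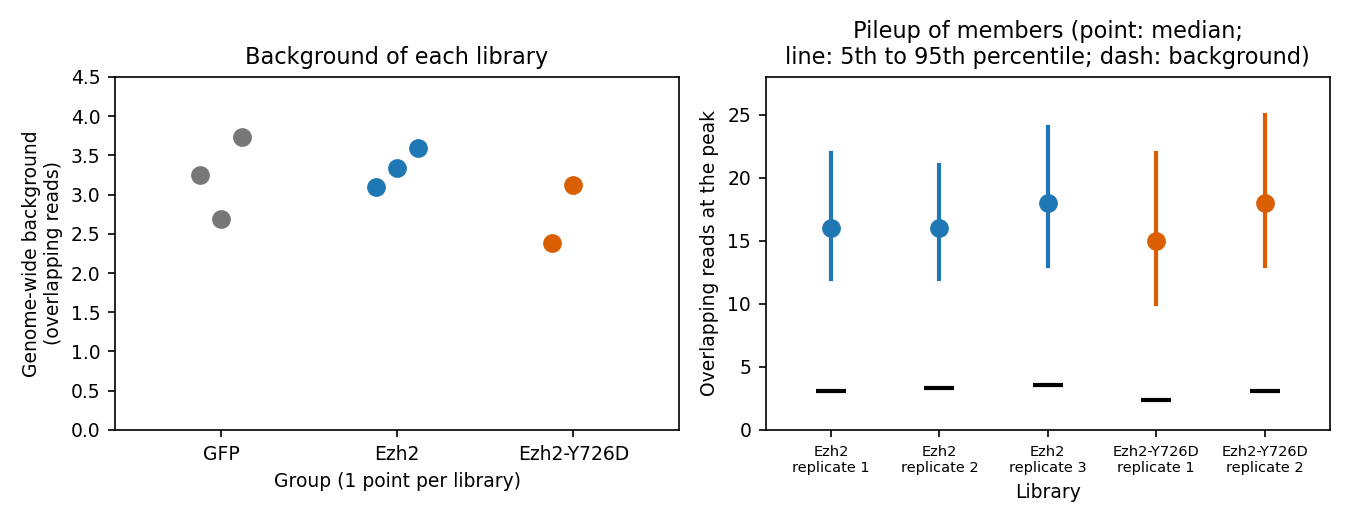
Left, background of each of the 8 libraries in overlapping reads (y axis) by group (x axis, 1 point per library); the GFP points, from 2.69 to 3.74, overlap those of both other groups. Right, overlapping reads at member peaks on that background (y axis) by library (x axis), with the median as a point, the 5th to the 95th percentile as a line and the background as a dash; medians run from 15 to 18 reads.

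The presence of peaks across lists was graded. With a peak in all 5 Ezh2 and Ezh2-Y726D lists, 934 regions had none in GFP, 2215 had one in 1 GFP list, 4730 in 2 and 68278 in all 3. Of the 2215 regions kept out by a single GFP list, 1567 were kept out by GFP replicate 3, 390 by replicate 1 and 258 by replicate 2. GFP replicate 3 had the longest GFP list, with 131339 peaks against 113763 and 111036, and the highest background. Without it the rule found 2502 regions in place of 934, so the number of members depends strongly on that library. The mirror image of the rule, a peak in all 3 GFP lists and in no other, was met by 618 regions.

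Just inside the rule, the 3 members of lowest mean percentile lay in Plxnb2 (a semaphorin receptor), Cacna1h (a T-type calcium channel) and Celf4 (an RNA-binding protein of neurons). The Plxnb2 member had folds of 1.95, 2.07 and 1.88 with Ezh2 and 1.97 and 2.04 with Ezh2-Y726D. Just outside it, the 3 regions whose single GFP peak was weakest had GFP folds of 1.74 in replicate 2, 1.68 in replicate 3 and 1.82 in replicate 1, beside 1.75 to 2.21 with Ezh2 or Ezh2-Y726D. Regions on both sides of the rule thus had folds of nearly the same size.

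Of the 10 strongest members, 0 lay within 1 kb of a gene end. First was a region at chr1:64288898-64289543, inside the lncRNA gene Gm35803 and 166553 bp from Klf7, a Krüppel-like factor known for its part in axon growth. Its fold was 6.59, 5.54 and 5.67 with Ezh2 and 5.90 and 7.76 with Ezh2-Y726D. Second was a region in Agbl1 (a deglutamylase of tubulin), with folds of 5.62, 5.54 and 6.54 and of 5.90 and 6.31. Next was a region in the lncRNA gene 4930592A05Rik, with 5.62, 4.85 and 5.67 and with 7.08 and 6.06. Folds of the forms overlapped in the first pair of these regions, and in the last both Ezh2-Y726D folds exceeded all Ezh2 folds. Within-list percentiles overlapped in that last region too, with 61.0, 51.6 and 67.3 against 73.9 and 64.9. Among the other 7 of the 10 strongest, 1 lay in Kcnip1 (a potassium channel partner) and 1 in Spata19 (a protein of sperm mitochondria), a gene of 4.905 kb, where it stood 1083 bp from an end. The remaining 5 lay between genes, from 45836 bp (Epb41l4a) to 1219376 bp (Nxph1) from the nearest gene end. In the member of Kcnip1 the fold was 6.11, 5.08 and 6.81 with Ezh2 and 5.65 and 4.37 with Ezh2-Y726D. None of the 10 passed the limma comparison of the forms given further on, with adjusted p from 0.169 to 0.817.

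Agreement between libraries on which members were strong was low. The Spearman correlation of fold over the 934 members averaged 0.41 between pairs of Ezh2 lists, 0.57 between the Ezh2-Y726D lists and 0.34 across the forms, as a description over regions that share library and depth. Over the 68278 regions of all 8 lists, which span a wider range of folds, the averages were 0.90, 0.91 and 0.75. Peak summits of the 5 lists spanned a median of 156 bp within a member and lay within 100 bp in 25.9% of members. In regions of all 8 lists the median span was 106 bp, and 48.3% lay within 100 bp.

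Members lay far from genes' ends and inside long genes. Within 1 kb of an end of a protein-coding gene lay 26 members (2.78%, exact 95% interval 1.83 to 4.05, which covers counting error only), against 9.94% of all merged regions and 20.2% of regions of all 8 lists. Regions of Ezh2 alone stood at 4.45% and those of Ezh2-Y726D alone at 2.08%, and the interval of the members overlaps both of theirs. The median distance to the nearest start site was 44.6 kb, against 28.7 kb over all merged regions, 23.4 kb for Ezh2 alone and 49.7 kb for Ezh2-Y726D alone. Over 100 kb from any gene end lay 280 members (30.0%), against 22.0% of all merged regions, 13.8% for Ezh2 alone and 36.1% for Ezh2-Y726D alone. At the gene ends, the 3 members of highest mean percentile, chosen after their values were seen, stood at Acsm5 (a mitochondrial fatty acid enzyme), Med21 (a subunit of Mediator) and Twsg1 (a regulator of BMP signalling). The Acsm5 member had folds of 5.62, 4.85 and 6.32 with Ezh2 and 4.13 and 5.58 with Ezh2-Y726D. By the measures of distance the members lay nearer to the regions of Ezh2-Y726D alone than to those of Ezh2 alone.

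**Figure D3:**
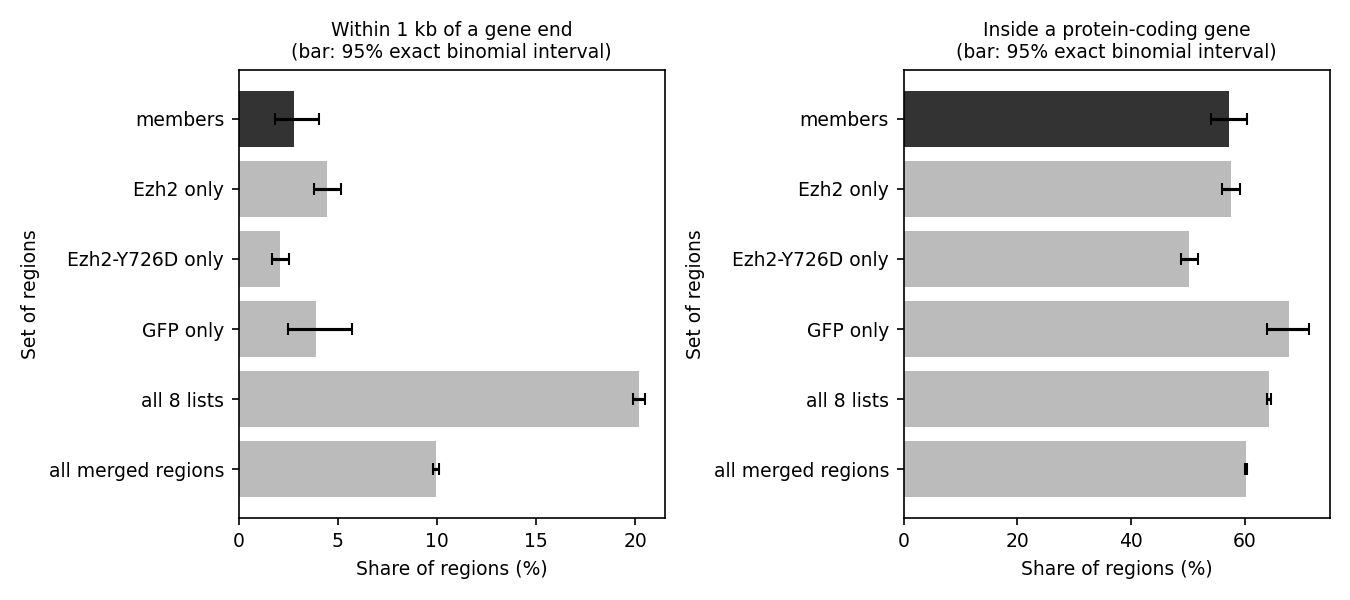
Share of regions (x axis, %) within 1 kb of an end of a protein-coding gene (left) and inside such a gene (right) for the members, in black, and 5 other sets of regions, in grey, with exact binomial 95% intervals. Members stand at 2.78% and 57.2%, against 20.2% and 64.2% for regions of all 8 lists.

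Inside a protein-coding gene lay 534 members (57.2%, 53.9 to 60.4), against 60.2% of all merged regions, 57.5% for Ezh2 alone and 50.2% for Ezh2-Y726D alone. Exons and introns were not analysed here. The 473 genes that hold a member had a median length of 158 kb, against 17.5 kb over all 20665 protein-coding genes, and 65.1% of them against 11.2% were longer than 100 kb. A long gene can hold a region more easily, and the genes that hold regions of any kind were also long: the median region's host was 181 kb for members, 124 kb for all merged regions, 96.9 kb for Ezh2 alone and 200 kb for Ezh2-Y726D alone. Chromosomes held from 22 members (19) to 73 (5), and the shares followed those of all merged regions within about 2 percentage points, with 4.18% against 6.19% on 11 and 6.42% against 4.73% on 12. Members were scattered, with a median gap of 1501 kb to the next, and 13 neighbouring pairs lay within 10 kb. A region with a GFP peak stood at a median of 4963 bp from a member, and within 10 kb of 74.0% of members, against 79.9% of all merged regions.

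Genes that held several members were long. B3galt1 (a galactosyltransferase) held 4 members, and 9 genes held 3 each. Of these, Ptprd and Csmd1 code for synaptic surface proteins, Erc2 for a scaffold of the presynaptic active zone, and Kcnma1 for the large-conductance calcium-activated potassium channel. Kcnip1 codes for a partner of potassium channels, Plcb1 for a phospholipase C, Farp1 for a synaptic exchange factor, Mgat5 for a glycosyltransferase and Rere for a nuclear corepressor. Another 48 genes held 2 members each, among them, chosen after the counts were seen, Ncam1 and Ntng1 (neuronal adhesion), Homer2 (a postsynaptic scaffold), Rbfox1 (a neuronal splicing factor) and Hdac9 (a histone deacetylase). Ptprd and Csmd1 span 2271 and 1643 kb, while Farp1 and Mgat5 span 249 and 283 kb. The 4 members of B3galt1 stood at mean percentiles of 51.9, 15.4, 26.7 and 28.1, so they were not alike in strength.

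Gene lists of synaptic adhesion and ion channels held a larger share of members than of all regions, as they also did for regions of Ezh2-Y726D alone. For transmitter receptor genes the 2 shares were closer. Lists of Polycomb genes held no members and few regions of any kind. Genes of synaptic adhesion held 31 members in 24 of 65 genes, or 3.32% of members against 1.95% of all merged regions, 0.488% for Ezh2 alone and 2.97% for Ezh2-Y726D alone. Ion channel genes held 13 members in 9 of 46 genes, or 1.39% against 0.750%, 0.136% and 1.31%. Transmitter receptor genes held 7 members in 6 of 43 genes, or 0.749% against 0.553%, 0.163% and 0.974%. These shares are descriptions and were not tested, since genes of these lists are long and the lists were written with earlier results of these data known. The Ezh2 gene held 13 merged regions and 0 members. The 12 measured PRC2 genes, the 19 PRC1 genes and the 94 developmental transcription factors known as Polycomb targets held 0 members. Their shares of all merged regions were also small, at 0.0472%, 0.0563% and 0.202%, so 0 members lies close to these shares.

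Among synaptic adhesion genes, Nlgn1 (neuroligin-1, a postsynaptic partner of neurexins) held a member with folds of 4.64, 4.15 and 4.80 with Ezh2 and 5.02 and 4.85 with Ezh2-Y726D. Nrxn3, a neurexin, held one with 3.55, 3.23 and 3.41 and with 3.92 and 3.73. Robo1, a receptor for Slit guidance cues, held one with 4.15, 4.62 and 4.80 and with 5.90 and 5.09. In all 3 the folds with Ezh2-Y726D were above those with Ezh2, and none passed the test, with adjusted p of 0.943, 0.460 and 0.437. Folds were higher in the Ezh2-Y726D lists in general, with medians of 6.68 and 6.60 for regions of all 8 lists against 5.99 to 6.20. Within-list percentiles overlapped at Nlgn1 (44.5, 37.3 and 54.5 against 48.3 and 47.4) and at Robo1 (33.6, 47.3 and 54.5 against 61.4 and 51.5), but not at Nrxn3. Opcml, a cell adhesion molecule of neurons, had almost the same fold in each library, with 4.15, 4.15 and 3.92 and with 4.13 and 4.12.

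Among channel genes, Cacna1c (the pore of an L-type calcium channel) held a member with folds of 6.59, 5.08 and 6.76 with Ezh2 and 4.13 and 4.61 with Ezh2-Y726D, without overlap. Its difference just missed the threshold (adjusted p = 0.0518, limma). Cacna1a and Cacna1e, pores of P/Q-type and R-type channels, held members whose values lay the other way, with 3.18, 3.69 and 3.02 against 4.69 and 4.55 in Cacna1a and 3.18, 4.15 and 3.71 against 5.90 and 4.85 in Cacna1e (adjusted p = 0.0726 and 0.118). The member in Scn2a, a sodium channel of axons, had 3.18, 3.23 and 3.05 and 3.25 and 3.64, and that in Kcnc1, a channel of fast firing, was among the weakest, with folds from 2.24 to 2.65. Kcnma1 held 3 members, and in 2 of them the folds lay opposite ways between the forms. One had 3.42, 3.23 and 3.71 against 4.86 and 4.61, and another 4.15, 4.15 and 3.85 against 3.54 and 2.69. Neither passed the test (adjusted p = 0.0708 and 0.0544, limma). Folds overlapped in the remaining member, with 4.39, 4.46 and 3.19 against 4.01 and 3.94.

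Glutamate receptor genes held all 7 members of the receptor list. Gria1 and Gria4, AMPA receptor subunits, held members with 4.15, 3.69 and 3.05 against 3.54 and 3.08 and with 3.66, 4.39 and 4.14 against 4.89 and 5.34. Grm5, a metabotropic receptor, held a member with 4.64, 4.85 and 4.58 against 5.61 and 6.31. Folds lay lower with Ezh2 than with Ezh2-Y726D, without overlap, in Gria4 and Grm5 and overlapped in Gria1, and none of the 3 passed the limma test, with adjusted p from 0.240 to 0.404.

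Of 10 genes that the study names as lowered by Ezh2 in RNA, a choice made on the same experiment and so no independent evidence, Epha6 and Wfdc1 held 3 members, or 0.321% against 0.0944% of all merged regions. Epha6 (an ephrin receptor) held 2, with folds of 3.91, 3.00 and 4.36 against 5.02 and 4.85 in one and 3.91, 5.08 and 4.58 against 3.25 and 3.88 in the other. The members of Epha6 lay opposite ways between the forms, and neither passed the test (adjusted p = 0.280 and 0.109). Wfdc1 (a secreted protease inhibitor domain protein) held 1 weak member with folds from 2.64 to 2.86, 4343 bp from an end of the gene and over a start site of the lncRNA gene Gm32352. The 12 genes named as raised in RNA held 0, close to their share of all merged regions, which was 0.0145%. Of 56 genes of axon growth, Crmp1 (a collapsin response mediator) held 1 member (0.107%, against 0.413% of all merged regions), with folds of 3.66, 3.00 and 4.36 and of 5.02 and 3.88.

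Marker genes of cell types hold few regions of any kind, and their share of members was small too. Opn4, the photopigment melanopsin of intrinsically photosensitive RGCs, held 1 member, 166 bp from an end of the gene, with folds of 4.78, 3.07 and 4.31 with Ezh2 and 3.47 and 3.40 with Ezh2-Y726D. That is 0.107% of members, against 0.0993% of all merged regions for the RGC list. Lists of rod, bipolar, amacrine, Müller glia and microglia markers held 0 members, against 0.0429% to 0.142% of all merged regions. Lef1, a factor of T cells, held 1 (0.107%, against 0.0778%), and Tie1 and Vwf, of endothelium, 1 each (0.214%, against 0.0488%).

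Both forms could be compared with each other, since the rule did not use that contrast. Members ranked lower under Ezh2 more often than higher, but few differed beyond the spread between libraries. For each of the 76157 regions with a peak in all 5 lists, the rank of its fold was turned into a normal score and the forms were compared with limma (called at a Benjamini-Hochberg adjusted p under 0.05). Called were 38 members (4.07%), against 10.0% of all regions fitted. Of these, 12 (1.28%) were higher under Ezh2, against 5.21%, and 26 (2.78%) lower, against 4.84%, and 896 were not called. Unadjusted p (limma) was under 0.05 in 196 members. The share over all regions fitted was not computed for this or the later counts of unadjusted p, so they cannot be read as an excess. Scores of the forms did not overlap in 105 members with Ezh2 above (11.2%, against 24.8% of all regions fitted) and in 186 with Ezh2 below (19.9%, against 21.8%). The median difference, Ezh2 minus Ezh2-Y726D, was -0.14 over members and 0.02 over all regions fitted, and 60.7% of members against 48.3% of regions had a difference below 0. The median SE of a member's difference was 0.275, and the smallest difference called was 0.723 in size, so most members could differ by less than that without being called.

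With 1 Ezh2-Y726D library, whose spread is then assumed to be that of the Ezh2 libraries, limma called 0 of all 79904 regions (without replicate 1) and 0 of 78584 (without replicate 2), members included, with 173 and 190 members at an unadjusted p under 0.05. Without replicate 1 and without replicate 2, the differences in score stayed near their size at some of the largest calls and moved at others. At Clstn1, the leading call, they were 1.38 and 1.29 against 1.39 with both libraries. At Ankrd44 they were -1.49 and -1.40 against -1.43. At Ngly1 they were 1.77 and 0.905 against 1.39, and at Enthd1 1.72 and 0.937 against 1.38. Near Agk they were -1.03 and -1.92 against -1.46, so the size of some calls depended on the library used. Without GFP replicate 3, which enlarges the set to 2502, 38 were higher and 89 lower (5.08% called, against 10.1% of all regions fitted). Leaving out Ezh2 replicate 1 gave 1 higher and 21 lower among 1548 members (1.42%, against 4.7% of all regions fitted).

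**Figure D4:**
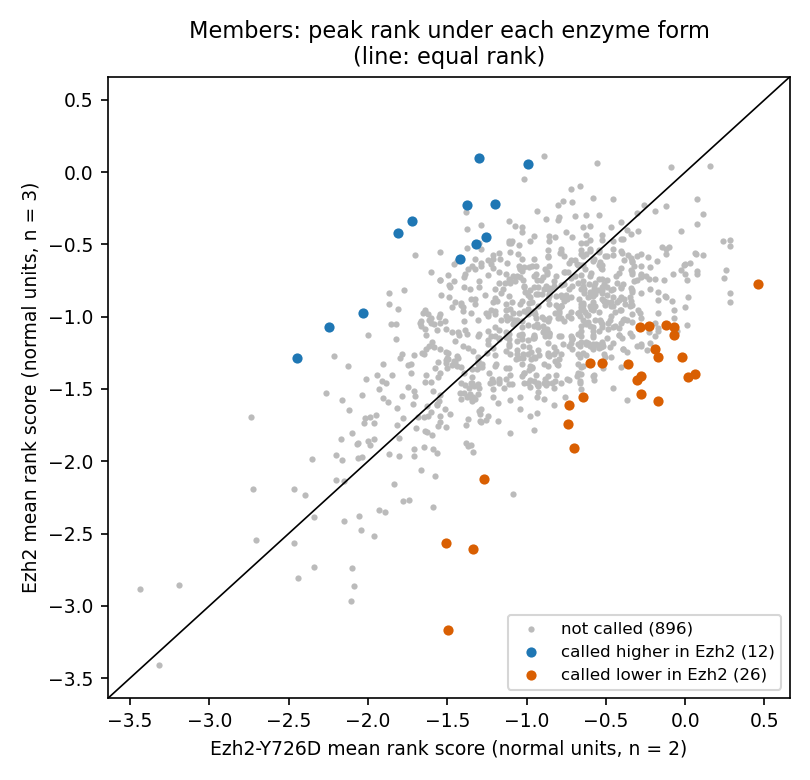
Mean rank score of each member under Ezh2-Y726D (x axis, normal units, n = 2) and under Ezh2 (y axis, n = 3), where 0 is the middle of all regions fitted and the line marks equal scores. Most of the 934 points lie below 0 on both axes; 12 called higher under Ezh2 are blue, 26 called lower are orange and 896 not called are grey.

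Median percentile per library, averaged by group, was 29.6 ± 5.77 (SD, n = 3) with Ezh2 and 35.6 ± 0.901 (SD, n = 2) with Ezh2-Y726D. The difference of -5.98 did not pass a two-sided exact permutation test (p = 0.4, where 0.2 is the smallest that 3 against 2 libraries can give), and Ezh2 replicate 3 stood close to the Ezh2-Y726D values. A p that misses the threshold does not show that the forms acted alike.

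Among members called higher under Ezh2, Clstn1 (calsyntenin-1, a cargo adaptor and synaptic adhesion protein) led. Its member, at chr4:149632693-149633085, had folds of 5.87, 6.36 and 5.89 with Ezh2 and 3.84 and 3.64 with Ezh2-Y726D, well apart (difference of 1.39 ± 0.176 in score, SE, adjusted p = 0.00929, limma). Ngly1 (which removes sugar chains from misfolded proteins) followed with 4.71, 4.20 and 5.88 against 3.67 and 2.68 (adjusted p = 0.0463). Enthd1 had 5.23, 4.55 and 5.43 against 3.76 and 2.79 (adjusted p = 0.0280). Tenm3 (a teneurin that guides retinal wiring) had 4.19, 3.23 and 4.18 against 2.65 and 2.79 (adjusted p = 0.0460). The member over the Tnk2 start site, whose sequence is given above, had 3.76, 3.92 and 3.13 against 2.56 and 2.52 (adjusted p = 0.0243). A further member of Tenm3 had 4.44, 4.07 and 4.07 against 5.56 and 4.57 and was not called (adjusted p = 0.456), so the call in Tenm3 was of a single region.

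Among members called lower under Ezh2, the largest difference was at chr8:126852230-126852994 in the lncRNA gene Gm31718, with folds of 2.08, 2.27 and 1.90 with Ezh2 and 3.59 and 3.38 with Ezh2-Y726D (difference of -1.67 ± 0.229 in score, SE, adjusted p = 0.0109, limma). Its Ezh2 folds were among the lowest of their lists, at percentiles 0.261, 0.755 and 0.117. When regions were ranked by −log10 p in place of fold, its difference was -0.227 and it was not called. A region 30374 bp from Agk, a lipid kinase of mitochondria, had 3.91, 3.23 and 3.27 against 7.97 and 5.34 (adjusted p = 0.0311). Ankrd44, a subunit of a protein phosphatase complex, held one with 4.04, 3.47 and 2.84 against 6.25 and 6.52 (adjusted p = 0.0279). At Olfr613, an odorant receptor gene, the member covered a gene end, with 3.42, 2.77 and 3.71 against 6.20 and 5.58 (adjusted p = 0.0325). Fam53b held one with 2.13, 2.47 and 2.66 against 3.83 and 3.60 (adjusted p = 0.0379). In none of these 10 members did the folds of the forms overlap, which the choice of the largest called differences favours.

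**Figure D5:**
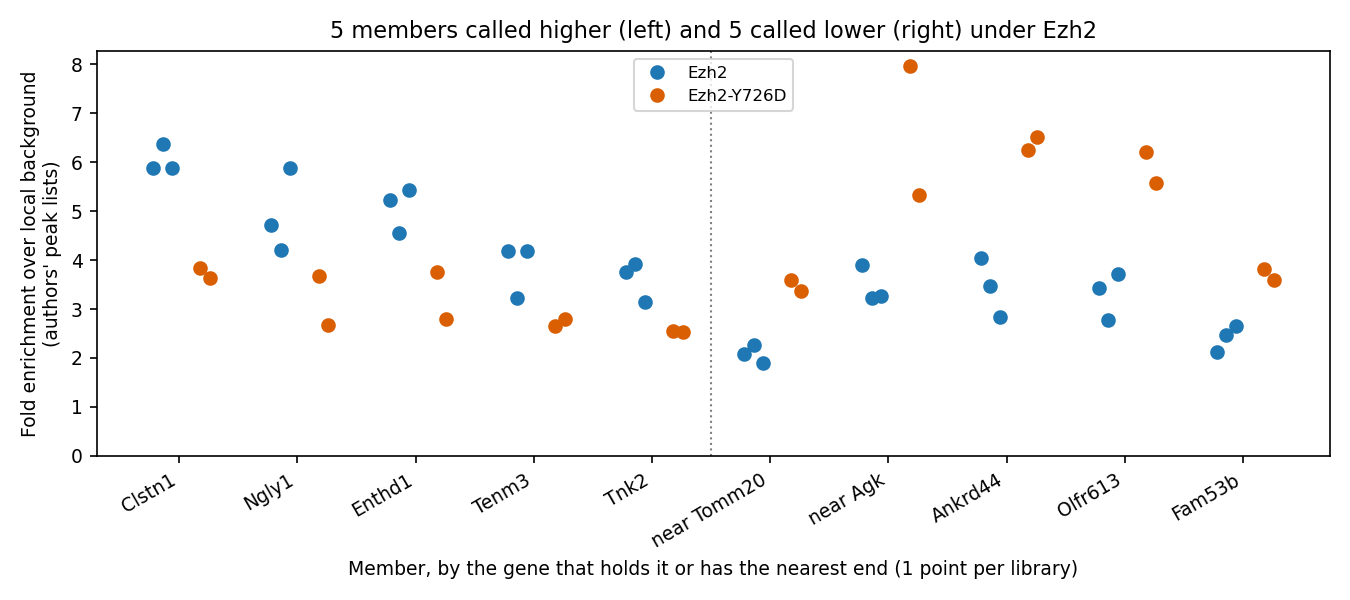
Fold over local background in each library (y axis, linear from 0) of the 5 members called higher and the 5 called lower under Ezh2 with the largest differences (x axis, by the gene that holds the member or has the nearest end), with Ezh2 in blue and Ezh2-Y726D in orange. The blue and orange points do not overlap in any of the 10 regions, which were chosen for their large differences.

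Over all regions fitted, 4.84% were called lower under Ezh2. Of the members in list genes, 4 more were called lower, 2 of the 31 in synaptic adhesion genes and 2 of the 7 in receptor genes. Ptprd (a receptor phosphatase that organises synapses) held one with folds of 3.42, 3.23 and 3.27 with Ezh2 and 5.02 and 6.31 with Ezh2-Y726D (adjusted p = 0.0178, limma). Its other 2 members were not called, with 3.85, 3.43 and 3.46 against 3.11 and 3.80 and with 5.13, 4.39 and 5.01 against 4.72 and 4.12. Cntnap5c (of the contactin-associated family) had 3.91, 4.15 and 4.80 against 7.97 and 7.52 (adjusted p = 0.0217). Grm7 (a presynaptic glutamate receptor) had 4.15, 3.69 and 3.71 against 6.79 and 5.34 (adjusted p = 0.0440), and Grik4 (a kainate receptor subunit) 3.18, 3.23 and 3.27 against 4.43 and 4.85 (adjusted p = 0.0300). With Tenm3 counted, synaptic adhesion genes had 1 member called higher, 2 lower and 28 not called, or 9.68% called against 10.0% of all regions fitted, with a median difference of -0.16. Receptor genes had 0 higher, 2 lower and 5 not called, or 28.6% called against the same 10.0%, with a median of -0.42 over 7 members. Ion channel genes had 0 of 13 called (limma), also against 10.0%, with 5 at an unadjusted p under 0.05 and a median of 0.14. The median over all regions fitted was 0.02, and the shares called rest on few members.

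Libraries of the forms also differed in marker genes of immune cells. Of 19 microglia markers, 16, 14 and 15 had a peak within 1 kb of a gene end with Ezh2 and 5 and 5 with Ezh2-Y726D, against 14, 12 and 16 with GFP. Of 20 T cell markers, the numbers were 20, 20 and 20 with Ezh2, 10 and 9 with Ezh2-Y726D and 19, 18 and 20 with GFP. Peaks were listed at 17 to 19 of 20 RGC markers in every library, and at 16 to 18 of 20 rod markers. Of the members, 0 lay in a microglia marker gene and 1 in a T cell marker gene. The part of other cells in the comparison of the forms was not tested.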

How the data were processed

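The lists cover ATAC-seq of 8 samples of sorted mouse RGCs, grouped by the sample titles. The authors called peaks in each sample on build GRCm38, and the submitters' processing notes name Bowtie2, SAMtools, Picard and MACS2, with versions and thresholds not given in the sources used here. In the deposited lists the fold is the ratio of reads at the summit to the local background, made by the authors' peak caller. The deposited −log10 p and −log10 q values and the score, a rescaled −log10 q, come from the same caller, as does the deposited summit offset. Read totals are not in the lists.

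The members and gene lists were chosen with earlier results of these data known. Peaks sharing 1 bp were merged. Fold was ranked within each list, and for the 76157 regions in all 5 Ezh2 and Ezh2-Y726D lists the ranks were turned into normal scores and fitted with limma 3.58.1 in R 4.3.3 (lmFit, eBayes, Benjamini-Hochberg adjustment over all of them, called at adjusted p under 0.05). Every adjusted p is from this fit. Summaries per library were tested by exact permutation. Reads at a peak were recovered from the fold where it was a whole multiple, within 0.001, of the step of its list. Steps, interval operations and the fit were tested on simulated data. Gene positions and promoter windows came from RefSeq (GRCm38.p6), all coordinates are 1-based, and no genome sequence was used. Alternatives concerned the q threshold, list lengths, overlap, merging, ranking, blocks and each replicate left out. Named were the 10 strongest and 3 weakest members, the 5 largest calls per direction, members in list genes, genes with at least 3 members and 3 regions just outside the rule; promoters were shown where a member covers the start site, and other names say that they were chosen after values were seen. Values are printed for the members that a result turns on, and the others enter the counts. A result on 1 member is not reported here.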

Additional observations from a re-analysis of the deposited data

Results flagged for a closer look

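Chromosome X was outside the rule, which covers chromosomes 1 to 19 and found 934 of their 186387 merged regions (0.501%). Of 3436 merged regions on chromosome X, 18 had a peak in all 3 Ezh2 and both Ezh2-Y726D lists and in no GFP list. They were picked out because they carry the same pattern in data that no comparison used, and the difference from GFP was not tested.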

How the results depend on the processing

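Leaving out 1 replicate at a time, the rule found between 1129 members (without Ezh2 replicate 3) and 2502 (without GFP replicate 3), and 1548 and 1515 without Ezh2 replicates 1 and 2. Other choices gave 645 to 1067 members. With both Ezh2-Y726D libraries kept and each other replicate left out, members called higher under Ezh2 ranged from 1 to 38. Those called lower ranged from 20 to 89. The share of members called was 1.42% to 5.19%, against 4.7% to 10.1% of all regions fitted. Calls higher and lower were 6 and 15 with a mean percentile of at least 25, 6 and 12 with lists of equal length, and 10 and 9 when ranked by −log10 p. These were 3.08%, 2.79% and 2.03% of members, against 7.97%, 10.1% and 7.77% of all regions fitted. With a replicate block by title numbers, which share only a number (deviations of same-numbered samples correlated at -0.0017 and 0.00036), 9 and 22 were called. That was 3.32% of members, against 7.03% of all regions fitted. With a block by the numbers in the peak names, which differ from the titles for Ezh2-Y726D, 0 and 0 members were called, as were 0 of all 76157 regions (limma), with 189 members at an unadjusted p under 0.05 and a difference at Clstn1 of 1.44. The cause of these changes was not tested. At a gene end, counted within 3 kb, lay 6.53% of members. The percentile difference between forms kept its sign, from -1.40 to -7.85, as did those of the 10 largest calls wherever they were fitted. The calls themselves were less stable: when ranked by −log10 p, 8 of these 10 members were no longer called, and those in Clstn1 and Tnk2 still were. Among the 10 strongest members, 3 with small uncalled differences changed sign: near Klf7 (-0.44 to 0.19 over the replicates left out), in Agbl1 (-0.015 to 0.212, and -0.0213 with the title block) and near Tmem26 (-0.389 to 0.121, and 0.0616 with the peak name block). Read totals were not used, folds near background limit what can be told at members, and 2 Ezh2-Y726D libraries limit the comparison.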

Other observations

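Regions with a peak in all 8 lists and within 10 kb of a member numbered 722. Their median rank score, Ezh2 minus GFP, was -0.03, and 45.8% of them lay above 0, against 0.01 and 51.3% over all 68278 such regions. For Ezh2-Y726D minus GFP the median was -0.10 with 39.6% above 0, against -0.01 and 48.6%. Both differences share the GFP libraries and were not tested. Within 1 kb of any of the 919 miRNA hairpins in RefSeq lay 2 members.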
